A study of Homo sapiens with 10 samples.

Results

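H3K18ac and H3K27ac, acetylation of different lysines in the tail of histone H3, were compared within C4-2B, a castration-resistant prostate adenocarcinoma cell line. All peaks of the C4-2B H3K18ac list (198451 peaks) and of the C4-2B H3K27ac list (68034 peaks) that overlapped by at least 1 bp were merged into regions, and each region was classed by the marks it carried. Of the 198929 regions, 137255 (69.0%) carried H3K18ac only, 4224 (2.12%) carried H3K27ac only and 57450 (28.9%) carried both marks. These are the C4-2B part of 537404 peaks in the 4 lists of the study, whose other cell line, C4-2BER, is a neuroendocrine-like derivative of C4-2B obtained by continuous exposure to enzalutamide. The C4-2B cells were grown in RPMI with fetal bovine serum, without any drug named in the labels, and were fixed with disuccinimidyl glutarate and then formaldehyde before ChIP-seq. Each mark had 2 libraries that the authors merged before peak calling, with 1 input library for C4-2B, so each mark is 1 pooled list from 1 cell line. Replicate errors and tests between the marks can therefore not be given, and the read depth behind a peak is unknown. "Only" means that the other list holds no overlapping peak, which does not show that the other acetyl mark was missing.

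Acetylation of histone tails loosens the contact of nucleosomes with DNA and is read by bromodomain proteins. EP300 and CREBBP, the p300 and CBP acetyltransferases, place acetyl groups on both of these lysines, and histone deacetylases remove them. H3K27ac is widely used to mark active promoters and enhancers, and H3K18ac is found at the same kinds of elements.

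As examples of the DNA under the classes, 6 windows of GRCh38 are shown. They were picked by name, strength or width and do not stand for their classes. The windows outside promoters are all H3K27ac only, so promoters and other sites are not matched between classes. CG dinucleotides, which cluster in the CpG islands of many promoters, are in capitals. The first 4 windows are RefSeq promoters (assembly GRCh38.p14, 300 bp around the start site, in the direction of transcription). EP300 (22:41092342-41092641, plus strand) and KLK3 (19:50854665-50854964, plus strand), the gene of prostate-specific antigen, carried both marks. MDFIC (7:114921844-114922143, plus strand) carried H3K18ac only and CHM (X:86047509-86047808, minus strand) carried H3K27ac only.
EP300: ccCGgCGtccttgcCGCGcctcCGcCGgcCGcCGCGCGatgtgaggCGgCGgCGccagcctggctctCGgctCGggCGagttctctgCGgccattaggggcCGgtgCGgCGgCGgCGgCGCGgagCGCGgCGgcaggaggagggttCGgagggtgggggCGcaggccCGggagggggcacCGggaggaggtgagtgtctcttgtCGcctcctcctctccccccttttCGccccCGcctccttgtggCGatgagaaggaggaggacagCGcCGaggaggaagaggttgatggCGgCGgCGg
KLK3: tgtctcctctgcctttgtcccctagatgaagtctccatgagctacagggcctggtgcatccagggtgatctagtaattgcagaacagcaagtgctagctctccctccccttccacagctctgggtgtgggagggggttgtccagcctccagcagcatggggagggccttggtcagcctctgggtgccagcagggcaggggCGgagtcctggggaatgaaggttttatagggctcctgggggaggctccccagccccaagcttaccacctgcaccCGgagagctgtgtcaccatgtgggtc
MDFIC: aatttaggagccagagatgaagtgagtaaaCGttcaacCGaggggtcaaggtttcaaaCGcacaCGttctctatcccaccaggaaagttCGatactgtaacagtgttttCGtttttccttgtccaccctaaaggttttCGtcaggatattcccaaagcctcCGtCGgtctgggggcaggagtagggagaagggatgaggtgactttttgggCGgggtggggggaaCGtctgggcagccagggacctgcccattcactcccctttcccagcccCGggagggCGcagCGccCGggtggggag
CHM: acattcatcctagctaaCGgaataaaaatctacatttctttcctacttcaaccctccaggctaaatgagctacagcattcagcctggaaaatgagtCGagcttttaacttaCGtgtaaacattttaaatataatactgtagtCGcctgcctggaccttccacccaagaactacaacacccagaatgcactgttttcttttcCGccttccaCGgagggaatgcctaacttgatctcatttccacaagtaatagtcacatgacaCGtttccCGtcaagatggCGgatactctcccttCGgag

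The other 2 windows, 300 bp on the plus strand, are the middles of H3K27ac-only regions outside promoters. The strongest such region lay nearest to GRIA3 (window X:122273714-122274013), and the widest H3K27ac-only region lay in an intron of PPP3CA (window 4:101257492-101257791).
near GRIA3: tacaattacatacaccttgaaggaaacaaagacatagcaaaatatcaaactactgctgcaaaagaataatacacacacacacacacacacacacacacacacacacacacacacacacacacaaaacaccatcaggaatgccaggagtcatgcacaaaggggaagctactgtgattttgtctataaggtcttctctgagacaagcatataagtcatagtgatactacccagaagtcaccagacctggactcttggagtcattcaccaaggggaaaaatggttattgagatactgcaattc
in PPP3CA: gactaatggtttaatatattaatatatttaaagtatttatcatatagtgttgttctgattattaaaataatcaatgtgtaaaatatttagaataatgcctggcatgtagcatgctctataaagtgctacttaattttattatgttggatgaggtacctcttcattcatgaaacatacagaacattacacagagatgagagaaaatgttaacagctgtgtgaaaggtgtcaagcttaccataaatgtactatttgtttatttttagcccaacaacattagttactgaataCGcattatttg

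The EP300 promoter held 40 CG dinucleotides, while the KLK3 promoter held 2 although it carried both marks. MDFIC held 15 and CHM 10. The GRIA3 window held none and the PPP3CA window held 1, at GC contents of 41.0% and 28.3%. Both lay below the median of 47.3% in 300 bp windows of H3K27ac-only regions outside promoters. Repeat annotation was not used here, so it was not examined whether reads at the repeated stretch of the GRIA3 window map uniquely.

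Nearly all of the H3K27ac list lay under H3K18ac, and most of the H3K18ac list did not lie under H3K27ac. Of the H3K27ac peaks, 63810 (93.8%) overlapped an H3K18ac peak, and 49.5% lay wholly inside one. Of the H3K18ac peaks, 61196 (30.8%) overlapped an H3K27ac peak. The lists shared 100.9 Mb, which was 86.1% of the bases under H3K27ac and 34.4% of the bases under H3K18ac. The lists differ in length by a ratio of 2.92 in peaks and 2.50 in covered bases, and H3K18ac covered 9.49% of the genome against 3.79% for H3K27ac. At a fold enrichment of at least 4, the ratio of ChIP signal to local background that the peak caller reports, the lists were of nearly equal length, with 28968 H3K18ac and 28927 H3K27ac peaks. The overlap was then also nearly equal, at 81.1% of H3K18ac and 80.7% of H3K27ac peaks.

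The overlap rose with fold enrichment in both lists. Among the 10% of H3K18ac peaks with the lowest fold, 7.15% overlapped H3K27ac, and among the 10% with the highest fold, 99.1% did. Most of the rise came in the upper part of this ranking, where the share was 24.2% in the seventh, 42.03% in the eighth and 75.9% in the ninth step. H3K27ac peaks overlapped H3K18ac in 84.9% of the lowest 10% and in all 6804 of the highest 10%. Width followed the same order, since 13.4% of H3K18ac peaks under 500 bp and 95.7% of those of at least 10000 bp overlapped H3K27ac. The overlap expected from peak width alone was not computed.

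**Figure D1:**
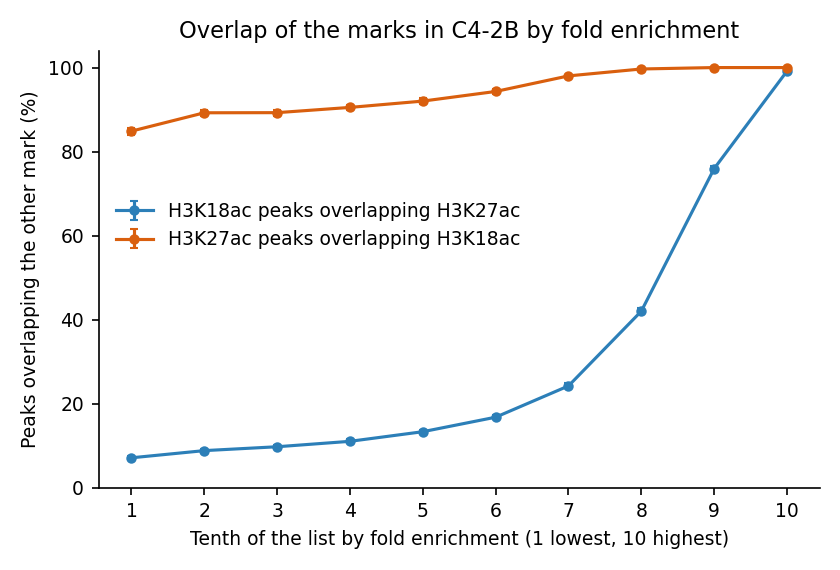
Share of peaks that overlap the other mark (vertical axis, percent) in each 10% step of fold enrichment within its own list (horizontal axis), for H3K18ac (blue) and H3K27ac (orange); bars are 95% Wilson intervals, most of them smaller than the points. H3K18ac rises from 7.15% to 99.1%, and H3K27ac starts at 84.9% and reaches 100%.

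Regions of both marks were the widest and strongest of the 3 classes. Their median width was 1959 bp (95% interval 1940 to 1976), against 587 bp (583 to 591) for H3K18ac only and 448.5 bp (433 to 470) for H3K27ac only. The single-mark classes changed places with peaks of at least 4-fold, at 793 bp for H3K18ac only and 1294 bp for H3K27ac only. Merging widens regions of both marks by construction, so unmerged peaks were also measured. H3K18ac peaks that overlapped H3K27ac had a median width of 1632 bp against 587 bp without overlap. H3K27ac peaks that overlapped H3K18ac had 1098 bp against 448.5 bp. A wider peak also has more room to meet a peak of the other list, so unmerged widths are not free of the classing. The difference expected from this alone was not computed. Regions over 5 kb made up 16.0% of both marks, 0.983% of H3K18ac only and 0.0473% of H3K27ac only, which is 2 regions. Since each list has its own background, fold enrichment was ranked within each list, where a percentile of 90 means that 90% of the peaks were weaker. The median H3K18ac percentile was 83.7 in regions of both marks and 38.0 in H3K18ac-only regions. The median H3K27ac percentile was 55.4 in regions of both marks and 24.9 in H3K27ac-only regions. The top 10% of the H3K18ac ranking held 18681 regions of both marks and 170 H3K18ac-only regions, and the top 10% of the H3K27ac ranking held 6514 regions of both marks and 0 H3K27ac-only regions.

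Within regions of both marks the H3K18ac peak was usually the wider one. In 50259 of the 57450 regions (87.5%) 1 peak of each mark was merged, and there H3K18ac was wider in 68.8%, with a median of 1514 bp against 983 bp for H3K27ac. The H3K27ac peak lay inside the H3K18ac peak in 49.1% of these pairs, and the reverse held in 19.3%. The fold enrichments of the marks rose together across regions, with a Spearman rho of 0.837 over all 57450 regions, 0.923 over the 16595 centred in promoters and 0.741 over the 40855 others. These are descriptions, since regions are not replicates and both lists come from the same cell line. The top 10% of both rankings held 6510 regions in common, and 89.6% of these were centred in promoters. No region stood in the top 10% for H3K27ac and below the median for H3K18ac. In the other direction 707 stood in the top 10% for H3K18ac and below the median for H3K27ac, 27.4% of them in promoters. These percentiles are of the full lists, in which both-mark regions had medians of 83.7 for H3K18ac and 55.4 for H3K27ac. The counts therefore do not set the marks on an equal footing.

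The widest regions of both marks lay in different settings. The widest was 130735 bp and spanned the whole of RXRA (9:134313561-134444295), a nuclear receptor that binds retinoids, where 1 H3K18ac peak covered 4 H3K27ac peaks. The next was 106859 bp (22:46034558-46141416), and the nearest protein-coding start was that of PPARA, a nuclear receptor of fatty acid metabolism, 74940 bp from its strongest peak, with 4 H3K18ac and 3 H3K27ac peaks. The region after these was 100758 bp outside genes (12:34306457-34407214), 334340 bp from the start of ALG10, with 1 H3K18ac and 13 H3K27ac peaks. The first and second lay in the upper part of their rankings, with H3K18ac percentiles of 94.9 and 96.8 and H3K27ac percentiles of 87.6 and 94.3. The widest H3K18ac-only regions were weak in comparison, with 26874 bp outside genes (8:46097814-46124687, percentile 46.2), 24158 bp in an intron (15:25224770-25248927, percentile 53.9), 109182 bp from the start of the ubiquitin ligase gene UBE3A, and 23929 bp in an intron of PRDM16 (1:3275300-3299228, percentile 47.4).

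Regions of both marks lay at promoters most often and H3K18ac-only regions least often. A promoter window, from 2000 bp before to 500 bp after any start site of a protein-coding or lncRNA gene in GENCODE 44, was touched by 38.2% of regions of both marks (95% Wilson interval 37.8 to 38.6). It was touched by 22.7% of H3K27ac-only regions (21.4 to 23.9) and 11% of H3K18ac-only regions (10.8 to 11.2), while these windows cover 6.69% of the genome. With the canonical start of each gene alone the shares were 26.8%, 4.52% and 5.03%, so the order of the single-mark classes rested on alternative starts. By the middle of the strongest peak, which does not depend on region width, the shares were 28.9%, 18.9% and 8.60%. The median distance to the nearest start site was 14542 bp for H3K18ac only, 4961 bp for H3K27ac only and 5735.5 bp for both marks. The shorter distance of H3K27ac-only than of both-mark regions depended on the setting. With canonical starts alone the medians were 15195.5 bp for H3K27ac only and 13724.5 bp for both marks. With peaks of at least 4-fold they were 8303 bp and 986 bp. H3K18ac-only regions lay outside genes in 36.0% of cases, against 14.0% for H3K27ac only and 21.0% for both marks. Introns held 58.1% of H3K27ac-only, 51.2% of H3K18ac-only and 45.1% of both-mark regions. H3K27ac-only regions also lay close to regions of both marks, with 56.8% within 5 kb of one, against 27.7% of H3K18ac-only regions. Outside promoters and within 10 kb of the nearest protein-coding start, the side downstream of the start held 67.1% of H3K27ac-only regions (64.9 to 69.3), 62.04% of both-mark regions (61.3 to 62.8) and 53.7% of H3K18ac-only regions (53.1 to 54.2).

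The promoter difference was also seen at equal H3K18ac rank. Regions with and without H3K27ac were compared in bands of equal H3K18ac percentile, and in each of the 10 bands the regions of both marks were centred in promoters more often. In the lowest band the shares were 21.7% (19.4 to 24.2) against 8.10% (7.71 to 8.50). In the band from 70 to 80 they came closest, at 12.7% (11.97 to 13.4) against 9.29% (8.77 to 9.83). In the highest band they were 57.2% (56.5 to 57.9) and 15.9% (11.2 to 22.1), the latter from 170 regions of at most 6.37-fold, while regions of both marks in this band reached 21.3-fold. The share in H3K18ac-only regions stayed between 8.06% and 9.29% up to the 80th percentile. Regions of both marks showed their high promoter share at both ends of the ranking and a lower one in between.

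**Figure D2:**
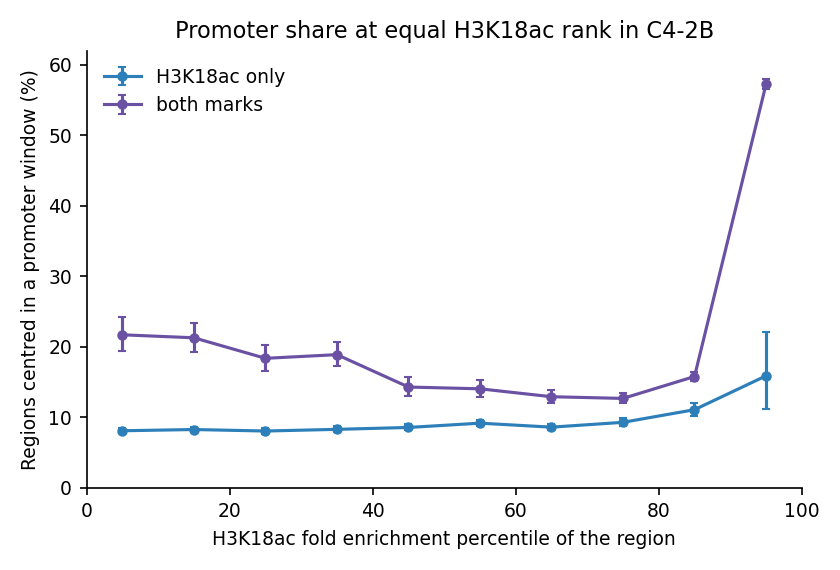
Share of regions centred in a promoter window (vertical axis, percent) against the H3K18ac fold enrichment percentile of the region in 10 bands (horizontal axis), for H3K18ac-only regions (blue) and regions of both marks (purple), with 95% Wilson intervals. The purple points lie above the blue points in every band, and the gap is widest in the last band, at 57.2% against 15.9%.

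Base composition separated the classes in another way. In 500 bp around the middle of the strongest peak, the median GC content was 46.0% in H3K27ac-only regions (95% interval 45.8 to 46.2), 51.4% in H3K18ac-only regions (51.4 to 51.6) and 52.4% in regions of both marks (52.2 to 52.4). At promoters, regions of both marks stood apart, with a median GC content of 60.4% and a CpG observed/expected ratio of 0.648. H3K18ac-only regions at promoters had 54.4% and 0.329, and H3K27ac-only regions had 49.4% and 0.308. A ratio of at least 0.6, a usual bound for CpG islands, was met by 54.3% of both-mark, 17.2% of H3K18ac-only and 6.26% of H3K27ac-only promoter regions. Outside promoters the order of GC content changed, with 51.2% in H3K18ac-only regions, 50% in regions of both marks and 45.4% in H3K27ac-only regions. Whether GC content altered the recovery of fragments in the H3K18ac and H3K27ac libraries was not tested.

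Short factor motifs were counted on both strands of the same 500 bp windows as a description of sequence. At promoters, GGGCGG, the GC box bound by SP and KLF factors, was in 57.3% of both-mark and 30.2% of H3K18ac-only windows, against 45.5% of all 29195 promoter windows. CCGGAAG, an ETS site, was in 12.4% and 4.80%, against 9.11% of all. Within windows of 45 to 55% GC the gap in the GC box shrank to 25.4% (24.1 to 26.8) against 19.0% (17.97 to 20.2), and that in the ETS site to 5.76% (5.07 to 6.52) against 3.53% (3.06 to 4.08). Outside promoters and within this GC range, TGTTTAC, a forkhead site of the kind bound by FOXA1, was in 6.92% of both-mark windows (6.57 to 7.28) and 5.50% of H3K18ac-only windows (5.34 to 5.68), against 5.80% of all. CCAATAAA, a HOXB13 site, was in 1.80% (1.63 to 2.00) and 1.36% (1.27 to 1.45), against 1.46% of all. H3K27ac-only windows had 4.63% (3.66 to 5.85) for the forkhead site and 1.33% (0.855 to 2.07) for the HOXB13 site. Other sites were searched too, and the higher share with both marks was not limited to these. The AP-1 site was in 13.5% of both-mark and 12.4% of H3K18ac-only windows. The GC box went the other way, at 17.2% and 18.8%. The cAMP response element had 0.264% and 0.315%, with overlapping intervals.

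Promoters of protein-coding genes mostly carried both marks. Of 20033 genes, 14737 (73.6%) had a promoter peak of both marks, 2732 (13.6%) of H3K18ac only, 45 (0.225%) of H3K27ac only and 2519 (12.6%) of neither. A mark was counted if it had a peak at any start site of the gene. The marks of a gene with both can therefore lie at different start sites. With the canonical start alone, 13852 genes had both marks, 3017 had H3K18ac only, 71 had H3K27ac only and 3093 had neither. lncRNA promoters carried the marks less often: of 18866, 35.4% had both marks, 22.8% had H3K18ac only, 0.721% had H3K27ac only and 41.1% had neither. Among the protein-coding promoters with both marks, the median of the strongest peak was 7.76-fold for H3K18ac and 18.2-fold for H3K27ac, at percentiles of 96.4 and 90.3. H3K18ac-only promoters were weak, with a median of 2.81-fold and a percentile of 55. Genes with both marks at the promoter had a median of 4 H3K18ac-only and 2 both-mark regions within 50 kb outside promoters, genes with H3K18ac only had 5 and 1, and genes with neither mark had 2 and 0.

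Around the start site, the marks of the 14737 genes followed each other closely. At the canonical start 94.97% of these genes lay under an H3K18ac peak and 88.5% under an H3K27ac peak. At 10 kb downstream the shares were 24.6% and 14.8%, and at 10 kb upstream 22.8% and 12.1%. Around the 2732 H3K18ac-only promoters, H3K18ac peaks covered 65.9% of starts and H3K27ac covered 0% there, as the class requires. The flanks of these genes had less H3K27ac too, at 3.77% 10 kb downstream and 4.32% 10 kb upstream, while H3K18ac still covered 17.8% and 16.2%.

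**Figure D3:**
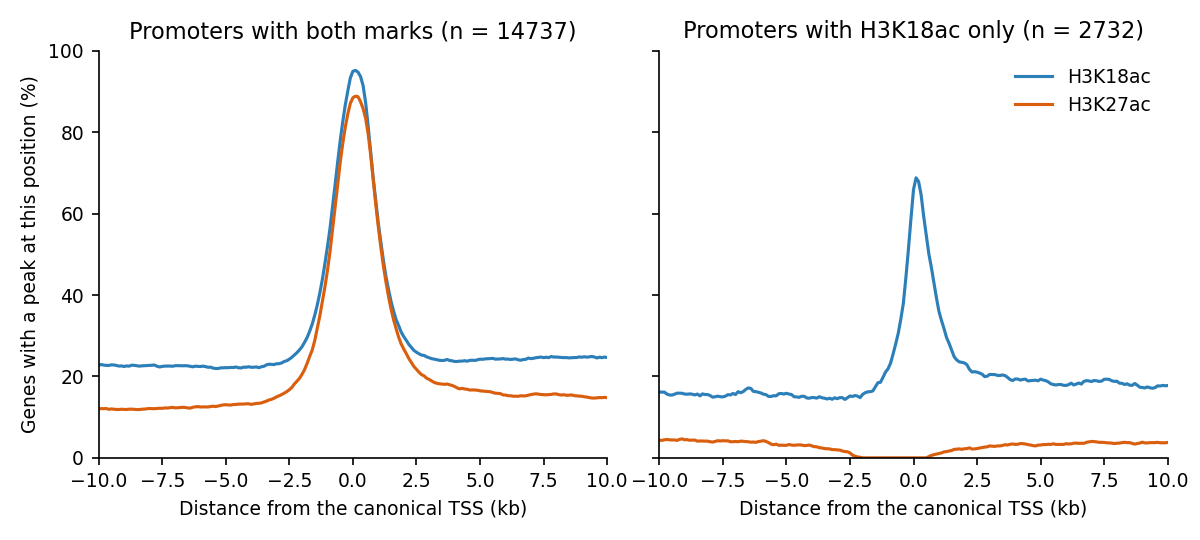
Share of genes under a peak (vertical axis, percent) by distance from the canonical TSS (horizontal axis, kb, negative upstream), for H3K18ac (blue) and H3K27ac (orange), in promoters with both marks (left) and with H3K18ac only (right). Both marks peak at the start on the left (94.97% and 88.5%), while on the right H3K27ac is 0% at the start by definition and stays under 5% out to 10 kb.

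The strongest promoters of both marks belonged to genes of several kinds. ARID1B, a subunit of the SWI/SNF chromatin remodelling complex, had the highest peak of either list, at 21.3-fold for H3K18ac and 58.7-fold for H3K27ac. NFE2L2, a transcription factor of the oxidative stress response, had 18.9-fold and 54.6-fold. COBLL1 had 20.3-fold and 52.4-fold, and EPM2A, the glycogen phosphatase laforin, had 18.4-fold and 50.03-fold. In each of these 4 promoters the H3K27ac peak contained the H3K18ac peak, as at ARID1B (6:156776637-156780251 against 6:156776944-156780085).

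The promoters that ranked most unequally for the marks differed in layout. MCOLN3, a cation channel of lysosomes and endosomes, had an H3K18ac peak at percentile 90.6 (4.89-fold) and an H3K27ac peak at 2.46 (2.22-fold). The H3K27ac peak (1:85048209-85048675) lay inside the H3K18ac peak (1:85047339-85048979). TRIM17, a ubiquitin ligase, had percentiles of 93.1 and 7.01, and LENEP, named for the lens epithelium, had 94.98 and 8.91, again with a narrow H3K27ac peak inside a wide H3K18ac peak. OTOS, the gene of otospiralin, had 95.2 and 5.98, but there the peaks lay apart (2:240135159-240142568 and 2:240146269-240146831). On the other side, ENSG00000267303 had an H3K27ac peak at percentile 86.8 (14.7-fold) and an H3K18ac peak at 10.4 (2.28-fold), and the narrow H3K18ac peak (19:10320838-10321506) lay at the end of the wide H3K27ac peak (19:10314593-10321499). ENSG00000289766 had 91.0 and 28.1, CSMD1 had 67.6 and 6.57, and ENSG00000267157 had 88.7 and 28.3, the last 2 with peaks that did not overlap.

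Promoters of 1 mark depended on where the window ended. The 5 strongest H3K18ac-only promoters (CXCR3, ENSG00000269711, KCNK4, TNFSF12 and C2CD4A, at 8.43-fold to 7.60-fold) and the 5 strongest H3K27ac-only promoters (DQX1, ENSG00000261582, TOMT, ENSG00000267168 and ENSG00000262526, at 31.8-fold to 15.7-fold) all had a peak that met the other mark outside the window. This held for 233 of the 2732 H3K18ac-only genes (8.53%) and 12 of the 45 H3K27ac-only genes (26.7%). A stricter list without these genes was made after the values were seen, and left 2499 and 33 genes. Its strongest H3K18ac promoter was 5.59-fold and its strongest H3K27ac promoter 7.34-fold, and medians were 2.77-fold and 3.03-fold.

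The strongest of the strict H3K18ac-only promoters had H3K27ac peaks in the derived line. MDFIC, an inhibitor of myogenic factors, had 5.59-fold, and DCLK1, a kinase related to doublecortin, had 5.48-fold. AKAP6, an anchoring protein of protein kinase A, had 5.38-fold at a start site inside the gene (14:32473830-32474299). JHY had 5.15-fold and PSD2, an exchange factor for ARF GTPases, had 5.11-fold. All 5 had promoter peaks of both marks in the C4-2BER lists, with H3K27ac at 2.06-fold to 3.21-fold. Over all 2499 strict genes, 428 (17.1%, 15.7 to 18.7) had both marks in C4-2BER. The share was 8.38% (6.93 to 10.1) in the lower 50% of the H3K18ac ranking, 17.0% (14.8 to 19.6) from percentile 50 to 75, 42.2% (37.4 to 47.1) from 75 to 90 and 58.3% (32.0 to 80.7) for the 12 genes above. The strict H3K27ac-only promoters were led by CHM, the gene of a Rab escort protein, at 7.34-fold, and KRR1, a ribosome assembly factor, at 6.64-fold. Next were NOMO3 (5.96-fold) and RGPD5 (5.20-fold), which have near-identical copies in the genome, so their peaks are uncertain, and ZNF585A (5.02-fold). CHM, KRR1 and ZNF585A had both marks in C4-2BER, and NOMO3 and RGPD5 again had H3K27ac only.

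Genes of the prostate luminal cell carried both marks throughout. All 10 luminal markers had a promoter peak of each mark, against 73.6% of all protein-coding genes. FOXA1, a pioneer factor of luminal cells, had 14.0-fold for H3K18ac and 29.0-fold for H3K27ac. KLK3 had 7.06-fold and 20.3-fold. FOLH1, the gene of prostate-specific membrane antigen, had 9.41-fold and 11.5-fold, and so ranked higher for H3K18ac (percentile 98.0) than for H3K27ac (83.3). All 18 androgen-regulated genes of the list also carried both marks. The weakest of them for H3K27ac were HPGD, which degrades prostaglandins (4.65-fold, percentile 63.3), and STEAP4, a metalloreductase (5.32-fold, percentile 67.8), both above percentile 90 for H3K18ac. All 78 cytosolic ribosomal protein genes had both marks as well.

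Among the enzymes and readers of acetylation, nearly every promoter had both marks, against 73.6% of all protein-coding promoters. All 14 histone acetyltransferase genes did, led by EP300 (13.9-fold and 38.5-fold) and CREBBP (12.6-fold and 33.9-fold). Of 16 histone deacetylase genes 15 did, and HDAC9 had H3K18ac only (3.24-fold). Of 12 genes for bromodomain proteins 11 did, among them SMARCA2 (12.04-fold and 34.9-fold), and BRDT, the member restricted to the testis, had H3K18ac only (2.31-fold).

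H3K18ac without H3K27ac was the most frequent class at neuroendocrine marker promoters. Of 9 neuroendocrine marker genes, 6 had H3K18ac only, against 13.6% of all protein-coding genes. Among these were CHGA (4.31-fold), INSM1 (2.91-fold), SCG3 (2.81-fold), CHGB (2.67-fold) and PCSK1 (2.48-fold), of which CHGA, CHGB and SCG3 are granins of secretory vesicles, INSM1 is a transcription factor and PCSK1 cleaves prohormones. CHGA stood highest, at percentile 87.7, and the others lay between percentiles 27.7 and 60.6. SYP, of synaptic vesicles, and SNAP25, of the fusion machinery, had both marks, at 3.88-fold and 8.16-fold and at 3.55-fold and 3.11-fold. SCG2 had neither. In the C4-2BER lists 3 of the 9 genes had both marks, 3 had H3K18ac only and 3 had neither. Of the 6 with H3K18ac only in C4-2B, 1 had both marks there, 3 again had H3K18ac only and 2 had neither. Among all protein-coding genes with H3K18ac only in C4-2B, 17.7%, 57.4% and 24.5% did so. The 2 with both marks in C4-2B had both again, as did 96.6% of all such genes.

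HOX genes had both marks at a share near that of all genes, and the other developmental regulators at a lower share. Of 39 HOX genes 30 (76.9%) had both marks, against 73.6% of all protein-coding genes, and 9 had H3K18ac only, namely HOXA5, HOXB1, HOXB4, HOXD3, HOXD4, HOXD8, HOXD9, HOXD10 and HOXD11. In C4-2BER 8 of these 9 again had H3K18ac only, against 57.4% of all H3K18ac-only promoters. Of 46 other homeobox and paired box genes 26 (56.5%) had both marks, 18 had H3K18ac only and 2 had neither. Those with both marks ranged from PITX1, a factor of hindlimb patterning (H3K27ac 32.6-fold), to DLX5 (2.21-fold). PAX2, PAX6 and SIX3 were among those with H3K18ac only, at percentiles of 78.3, 76.0 and 78.9, and all had both marks in C4-2BER. Of all 18 genes of this list with H3K18ac only, 5 had both marks in C4-2BER, 9 again had H3K18ac only and 4 had neither. Over all H3K18ac-only promoters these shares were 17.7%, 57.4% and 24.5%.

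Markers of other cell types that a culture could hold gave few strong promoters among leukocyte and basal genes, while some stromal genes were stronger. Of all protein-coding genes 13.6% had H3K18ac only, 73.6% had both marks and 12.6% had neither. Of 9 leukocyte genes 5 had H3K18ac only, 1 (CD14) had both and 3 had neither, PTPRC, the common leukocyte antigen, among them. Of 5 basal genes 2 had H3K18ac only (KRT5 and KRT14), 2 had both at H3K27ac percentiles of 34.8 and 40.3, and TP63 had neither. Of 7 stromal genes 3 had both marks, 1 had H3K18ac only and 3 had neither, DCN and LUM among these. Stromal genes with a peak had median percentiles of 93.4 for H3K18ac and 82.2 for H3K27ac. ACTA2 was the strongest of them, at 10.8-fold and 21.2-fold. Of 400 olfactory receptor genes, which are silent in most tissues, 358 had neither mark, 36 (9%) had H3K18ac only and 6 (1.5%) had both. H3K18ac only thus stood under its background of 13.6%, and both marks far under 73.6%.

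**Figure D4:**
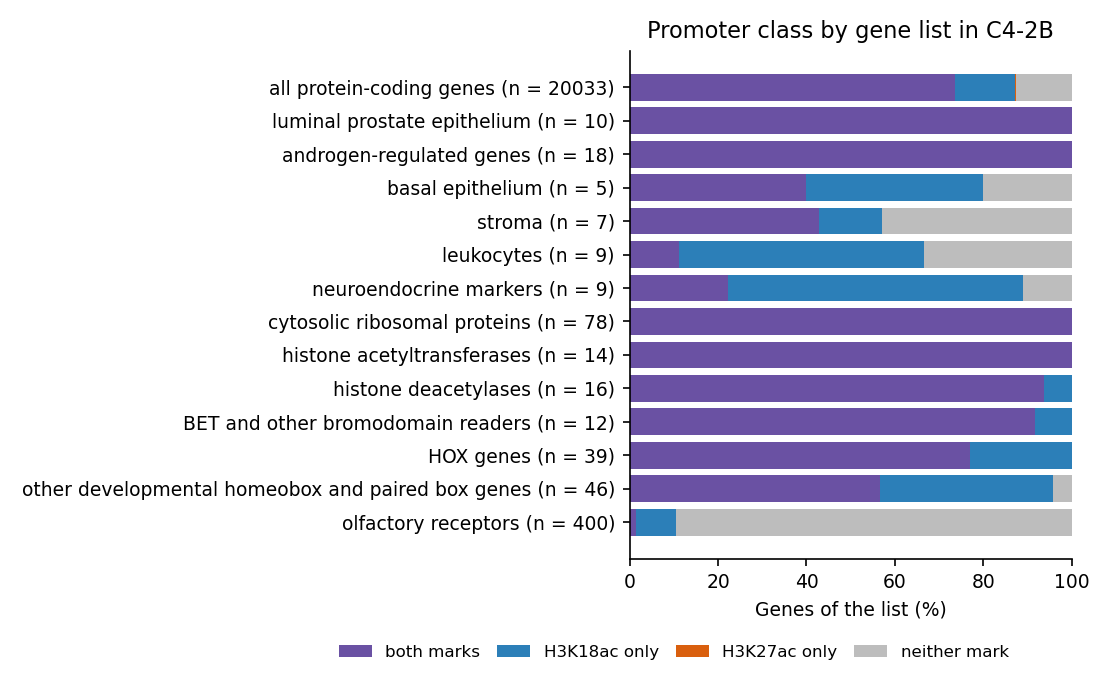
Share of the genes of each list (horizontal axis, percent) whose promoter carried both marks (purple), H3K18ac only (blue), H3K27ac only (orange) or neither mark (grey), with the number of genes in parentheses and all protein-coding genes in the top row. The luminal, androgen-regulated, ribosomal and acetyltransferase lists are wholly purple, blue takes 6 of 9 neuroendocrine markers, and 358 of 400 olfactory receptors are grey.

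H3K27ac-only regions were uneven along the genome. The 2913 bins of 1 Mb that held any region had a median of 1 H3K27ac-only region and 95% of them had 6 or fewer, while 38 bins with at least 10 held 449 of the 4224. The bin with the most, 4:101000001-102000000, held 23. It contains PPP3CA (4:101023409-101348278, minus strand), the catalytic subunit of the phosphatase calcineurin. The gene body held 21 H3K27ac-only and 48 both-mark regions and 0 H3K18ac-only regions, whereas H3K18ac-only regions made up 69.0% of all regions. H3K27ac peaks covered 39.9% of PPP3CA and H3K18ac peaks 12.2%, whereas over the genome H3K18ac covered more, at 9.49% against 3.79%. PPP3CA was thus not poor in H3K18ac. Of its 58 H3K18ac peaks 24 were in the top 10% of their list, and of its 69 H3K27ac peaks 1 was. The gene was named for its many H3K27ac-only regions, so this layout partly follows from the choice. The 3 widest H3K27ac-only regions of all, 5980, 5070 and 4678 bp, lay in its introns, at modest percentiles of 36.5, 52.3 and 49.4. In the C4-2BER lists H3K27ac again covered more of PPP3CA than H3K18ac, 42.5% against 24.1%. EFNA5, an ephrin ligand, held 16 H3K27ac-only regions outside promoters, the F-box gene FBXL17 held 11 and PPFIA2, a liprin, held 10. H3K18ac-only regions were most numerous in 4 long genes. PTPRN2, a phosphatase-like protein of secretory vesicles, held 141, DLGAP2, a scaffold of synapses, held 138, the cadherin gene CDH4 held 119 and SHANK2, another synaptic scaffold, held 106. In PTPRN2 H3K18ac covered 50.96% of the gene and H3K27ac 6.08%. Regions of both marks were most numerous in NAALADL2, with 65, and LIMCH1, with 54.

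**Figure D5:**
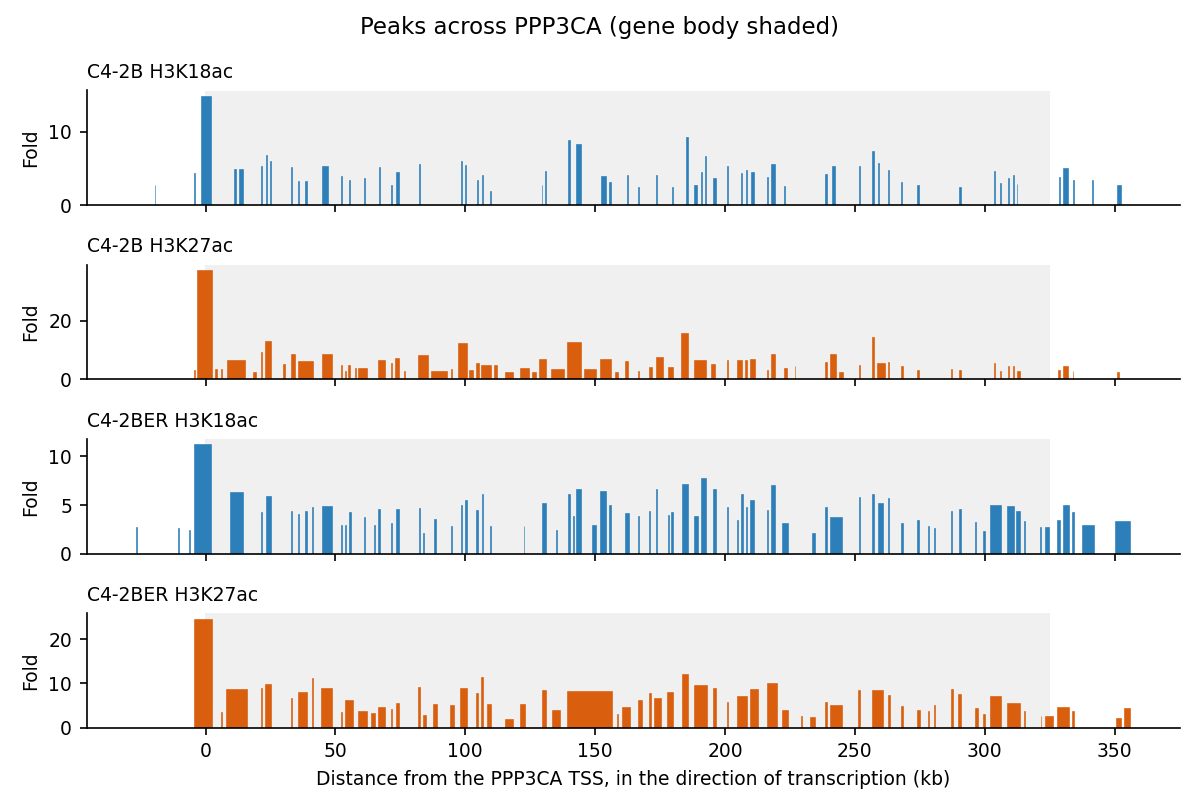
Peaks across PPP3CA by distance from its TSS in the direction of transcription (horizontal axis, kb), with the fold enrichment of each peak as bar height (vertical axis, a separate scale in each panel) and its width as bar width, in the C4-2B and C4-2BER lists of H3K18ac (blue) and H3K27ac (orange); the gene body is shaded. In C4-2B the H3K27ac bars fill 39.9% of the gene body and the H3K18ac bars 12.2%, and both marks have their highest bar at the start.

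Over the autosomes, the share of regions with both marks ran from 23.7% on chromosome 18 to 41.0% on chromosome 19, and it was 40.3% on chromosome X. Outside promoters, strong H3K18ac-only regions were at 6:1837682-1838099 in an intron of GMDS (6.26-fold, percentile 94.2) and at 8:9933699-9934165 (6.11-fold), 120360 bp from MSRA. The strongest H3K27ac-only regions were on chromosome X, at X:122273583-122274144 (8.19-fold, percentile 77.9), 910289 bp from GRIA3, and at X:76145879-76146248 (7.84-fold) near PBDC1, and another at 9:67723634-67724040 (6.80-fold) lay near ANKRD20A1, a gene with close copies. Strong regions of both marks were at X:3813639-3817165 near PRKX and 9:33510709-33511397 near ANKRD18B. Their H3K27ac was 37.1-fold (percentile 99.6) and 33.9-fold (percentile 99.2). Their H3K18ac was 11.97-fold (percentile 99.4) and 15.3-fold (percentile 99.9).

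The classes also differed in the C4-2BER lists, which the classing did not use. Of regions with both marks in C4-2B, 76.0% (75.7 to 76.4) had a peak of both in C4-2BER, 15.7% had H3K18ac only and 6.40% had neither. Of H3K18ac-only regions, 50.8% (50.5 to 51.1) again had H3K18ac only, 11.2% had both marks and 37.4% had neither. Of H3K27ac-only regions, 20.2% (19.1 to 21.5) again had H3K27ac only, 30.02% had both marks, 7.08% had H3K18ac only and 42.7% had neither. Any overlap counted here, and wide regions have more room to meet a peak. The mark or marks of the class were met in 76.0% of both-mark, 61.99% of H3K18ac-only and 50.3% of H3K27ac-only regions. Where C4-2BER peaks had to cover at least 50% of a region, these shares were 56.3%, 52.6% and 44.1%, so the classes lay closer together. Strong members were kept more often, since 167 of the 170 H3K18ac-only regions in the top 10% had an H3K18ac peak in C4-2BER, against 61.99% of the whole class, and 62 of them had an H3K27ac peak. Of genes with both marks at the promoter, 96.6% had both in C4-2BER, and of H3K18ac-only genes 57.4% again had H3K18ac only, 17.7% had both and 24.5% had neither. C4-2BER itself had 131844 H3K18ac-only, 5472 H3K27ac-only and 62560 both-mark regions. The C4-2BER lists also come from pooled libraries, so losses and gains of peaks cannot be told apart from differences in library depth or background.

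Regions of both marks were last split by balance, a split chosen after the values were seen. In 5807 regions the H3K27ac percentile was at least 20 points above the H3K18ac percentile after both were ranked within the 57450 regions, in 6352 the H3K18ac percentile was at least 20 points above, and 45291 were balanced. The H3K27ac-leaning regions had a median GC content of 47.4%, lay in introns in 57.7% of cases and outside genes in 18.1%. The H3K18ac-leaning regions had 55%, 41.9% and 35.3%, and a median distance to a start site of 12376 bp against 6690 bp. The leaning groups thus differed in the same direction as the regions of 1 mark did, in GC content and in the share outside genes. Balanced regions were centred in promoters in 31.6% of cases, against 18.2% for H3K27ac-leaning and 19.0% for H3K18ac-leaning regions. A C4-2BER peak of H3K27ac was present at 83.8% of H3K27ac-leaning and 61.8% of H3K18ac-leaning regions, and one of H3K18ac at 85.6% and 96.9%. The forkhead letters TGTTTAC, outside promoters and within 45 to 55% GC, were in 9.55% of H3K18ac-leaning, 6.53% of H3K27ac-leaning and 6.59% of balanced windows.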

How the data were processed

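ChIP-seq had been carried out for H3K18ac and H3K27ac in each cell line, using 2 libraries of either mark and, for C4-2B, 1 input library. The authors trimmed the reads, aligned them to GRCh38 with bowtie2 (2.2.3 in the submitters' processing notes, while the methods give another version), removed duplicates, merged the replicates and called broad peaks with macs2, whose settings are not given in the sources used here. The deposited lists hold a score per peak, which in the files is 10 times the −log10 q-value, rounded down. The fold enrichment that the authors deposited is a ratio of ChIP signal to local background, and the −log10 q-value, also deposited, comes from macs2. No read counts were used, so depth is unknown.

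Peaks of the autosomes, X and Y entered, and 0 ran past a chromosome end of GRCh38. Peaks overlapping by 1 bp or more were merged, and a region took the length-weighted mean fold of its peaks for each mark, ranked against the peaks of its own list. Start sites came from GENCODE 44. The classing was tested on simulated data, where it recovered 1000 of 1000 regions. Shares carry 95% Wilson intervals and medians carry 95% intervals from order statistics, both for counting error only. Genes were named by rule: the 4 highest and the 4 most unequal in each direction of both-mark promoters, the 5 strongest of each single-mark class, the 3 strongest regions of each class outside promoters, and members of fixed lists whose class differed from most of the list or that served as examples. PAX2, PAX6, SIX3, PITX1, DLX5 and the strict list were picked after values were seen. Results for some named items are not reported here. The members and the gene lists were chosen with earlier results of these data known. Python 3.11.15, numpy 2.4.6, pandas 2.3.3 and scipy 1.17.1 were used.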

Additional observations from a re-analysis of the deposited data

How the results depend on the processing

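Each summary was recomputed under 11 listed alternatives and 1 added after seeing the data, and of 143 values 48 stayed within their interval (counts within 1.5 times) and 95 moved. Some of the 48 could not move and are no sign of stability. The shares of overlapping peaks do not depend on the merging rule. Single-mark regions of the full lists hold 1 peak each, so their highest fold equals their mean fold. Regions of both marks had the largest median width and the largest promoter share under every alternative that recomputed these. No paired analysis was possible because the authors merged the replicates before peak calling, and for the same reason no replicate could be left out. In the next sentences values are given in the order H3K18ac only, H3K27ac only and both marks.

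With peaks of at least 4-fold only, 5483, 5575 and 22573 regions remained, 81.1% of H3K18ac and 80.7% of H3K27ac peaks overlapped, median widths were 793, 1294 and 2594 bp, and promoter shares were 20.5%, 22.9% and 60.9%. H3K18ac percentiles were 88.1 (H3K18ac only) and 94.1 (both) and H3K27ac percentiles 64.7 (H3K27ac only) and 83.1 (both), 776 and 356 genes had H3K18ac only and H3K27ac only, and C4-2BER peaks of the same class of mark met 32.7%, 62.8% and 77.6%. With −log10 q-values of 5 or more there were 13158, 4376 and 30589 regions, overlaps of 71.0% and 87.9%, widths of 743, 772.5 and 2456 bp, promoter shares of 16.3%, 19.5% and 51.2%, percentiles of 82.8 and 91.8 (H3K18ac) and 55.04 and 76.9 (H3K27ac), and 1103 and 146 genes. With equal numbers of the highest-fold peaks there were 22629, 19303 and 43492 regions, overlaps of 66.7% and 71.6%, widths of 464, 662 and 2110 bp, promoter shares of 11.5%, 22.1% and 42.2%, percentiles of 74.0 and 88.4 and of 22.95 and 66.5, and 952 and 332 genes. H3K27ac-only regions were thus wider than H3K18ac-only regions under these 3 choices and narrower in the full lists. Fewer peaks entered these 3, so most counts fell, and H3K27ac-only genes rose in number as weak H3K18ac peaks were left out. Under the same 3 choices median distances to a start site were 8303, 8459.5 and 5981 bp for H3K27ac only. For both marks they were 986, 2875 and 5376 bp. H3K27ac-only regions thus lay farther from start sites than both-mark regions there, and nearer in the full lists.

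Requiring an overlap of at least 50% of the shorter peak gave widths of 592, 542.5 and 1961 bp and an H3K18ac percentile of 83.9 for both marks. Merging peaks within 1000 bp gave widths of 592, 440.5 and 2083 bp, promoter shares of 10.8% and 38.9% for H3K18ac only and both marks, and an H3K27ac percentile of 56.1 for both marks. The highest fold of a region gave percentiles of 83.9 and 56.0 for both marks. A symmetric promoter window of 1000 bp either way gave promoter shares of 9.51%, 20.3% and 37.0%. Canonical starts only gave 5.03%, 4.52% and 26.8%, so that H3K27ac-only regions no longer exceeded H3K18ac-only regions, and 71 H3K27ac-only genes. Windows of 300 bp gave GC contents of 53.3%, 48.0% and 53.7%, and regions outside promoters 51.2%, 45.4% and 50%, where both marks fell below H3K18ac only. C4-2BER peaks covering at least 50% of a region met 52.6%, 44.1% and 56.3%, against 61.99%, 50.3% and 76.0% by any overlap. Median distances to a start site, for H3K27ac only and both marks, kept the order of the full lists with the 50% overlap (5076 and 5711.5 bp). They also kept it with merging within 1000 bp (5082 and 5802 bp). With canonical starts only the order was reversed (15195.5 and 13724.5 bp). The cause of these shifts was not tested. The added alternative, which drops promoters whose peak meets the other mark outside the window, gave 2499 and 33 genes.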
